A study of Homo sapiens with 120 samples.

Results

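The Iroquois family consists of 6 genes, IRX1 to IRX6, and all 6 were found by symbol among the 62703 genes of the table. They lie in a pair of clusters on GRCh38. In the GENCODE 29 annotation, IRX4 (chr5:1877413-1887236, minus strand), IRX2 (chr5:2745845-2751662, minus strand) and IRX1 (chr5:3596054-3601403, plus strand) span 1724 kb of chromosome 5. IRX3 (chr16:54283304-54286763, minus strand), IRX5 (chr16:54930862-54934485, plus strand) and IRX6 (chr16:55323760-55330760, plus strand) span 1047 kb of chromosome 16. All 6 passed the filter on low counts in both arms of the study.

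Iroquois genes encode transcription factors of the TALE homeodomain class. They are known for dividing the early nervous system and the heart into regions: IRX3 marks the neural plate behind the forebrain, and IRX4 is known as a gene of the heart ventricles. The clusters arose by duplication, so that genes of one cluster have paralogues in the other.

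Polyadenylated RNA of H1 human embryonic stem cells, an established line, was sequenced with 2 libraries (a and b) per group. The differentiation arm, 96 libraries in 48 groups, held unedited WT cells and the edited lines KO and ΔATG. They were sampled before differentiation (day 0) and daily from day 1 to day 5 of 3 protocols: BMP4, meant to give mesoderm, a SMAD inhibitor medium (SMADi), meant to give neuroectoderm, and a definitive endoderm kit (Endo). The overexpression arm, 24 libraries in 12 groups, held H1 cells labelled vector, lncSIRP, lncPRESS1 and lncPRESS1DATG at early, middle and late stages, whose days the labels do not give. The labels give neither the number of clones behind KO or ΔATG nor separate cultures for libraries a and b, so p-values measure the spread between libraries, which may be technical.

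The differentiation libraries held 38298440 to 71220396 counts each and the overexpression libraries 40113672 to 65466258. LNCPRESS1, the long non-coding RNA named in the overexpression labels, stood at 21.4 and 40.6 CPM (read counts scaled to library size) in WT at day 0, at 13.2 and 5.60 in KO and at 53.1 and 35.2 in ΔATG. By day 5 of WT, the sum of 5 endoderm markers was 13932 to 14348 CPM in Endo, that of 6 neuroectoderm markers 781 to 787 in SMADi, and that of 6 mesoderm markers 328 to 363 in BMP4, against means of 2.13, 303 and 15.2 at day 0. In bulk libraries, fewer cells of a type and less RNA per cell cannot be told apart.

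The members resemble each other closely in the homeobox, the coding stretch of the DNA-binding domain. A stretch of 90 bases is shown for each gene, because it shows how little separates the members there. The lines run 5′ to 3′ on the coding strand, from GENCODE 29 transcripts on GRCh38. Capitals mark the 6 positions at which members differ, and the other 84 bases are shared by all 6.
IRX1: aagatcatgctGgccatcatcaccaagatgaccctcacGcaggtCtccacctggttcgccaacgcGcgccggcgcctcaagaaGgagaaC
IRX2: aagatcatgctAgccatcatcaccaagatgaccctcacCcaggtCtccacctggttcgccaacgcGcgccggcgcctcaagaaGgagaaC
IRX4: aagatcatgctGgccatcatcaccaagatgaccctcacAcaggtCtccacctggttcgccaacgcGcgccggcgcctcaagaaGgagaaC
IRX3: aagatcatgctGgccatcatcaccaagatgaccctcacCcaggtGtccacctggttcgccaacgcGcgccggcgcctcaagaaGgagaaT
IRX5: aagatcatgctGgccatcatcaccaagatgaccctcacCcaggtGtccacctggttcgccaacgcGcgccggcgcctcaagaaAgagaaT
IRX6: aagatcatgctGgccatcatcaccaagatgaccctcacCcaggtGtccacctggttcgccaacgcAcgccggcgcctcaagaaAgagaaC
Each stretch lies within 1 coding exon: exon 2 for IRX1 (chr5:3599426-3599515, plus strand), IRX2 (chr5:2749509-2749598, minus strand), IRX3 (chr16:54285314-54285403, minus strand) and IRX5 (chr16:54932684-54932773, plus strand), exon 5 for IRX4 (chr5:1879628-1879717, minus strand) and exon 4 for IRX6 (chr16:55327707-55327796, plus strand).

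Over a homeobox window of 189 bases, the closest partner of IRX2 was IRX5, in the other cluster, with 94.7% of bases identical and the same residue encoded by 63 of 63 codons. The closest partner of IRX1 was IRX3, also in the other cluster, with 93.7% of bases identical and 62 of 63 codons for the same residue. IRX4 and IRX6 both stood closest to IRX1, at 92.6% and 89.9%. The longest run of bases shared exactly by a pair was 134, between IRX3 and IRX5. A read lying wholly within that run could come from either gene. Neither the read length nor the way such reads were assigned is given in the sources used here.

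At day 0 the chromosome 5 cluster carried most of the family's RNA. IRX2 stood at 30.8 and 32.0 CPM in the WT libraries, IRX1 at 4.50 and 2.81, and IRX4 at 2.34 and 2.77. On chromosome 16, IRX3 stood at 1.76 and 1.28, IRX5 at 0.339 and 0.860, and IRX6 at 0.576 and 0.825. Per kilobase of exon, IRX2 was the highest member, at 9.29 CPM per kb, and IRX1 followed at 1.97. IRX5 and IRX6 were the lowest, at 0.21 and 0.21 CPM per kb.

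In WT cells the course of the members differed between the 3 protocols, as the plot of CPM by day shows. IRX3 and IRX5 stood above day 0 on day 5 of all 3. The protocols were not tested against each other in WT. Against day 0, 4 of the 6 members were called at day 5 of BMP4, 5 at day 5 of SMADi and 5 at day 5 of Endo (edgeR quasi-likelihood test, Benjamini-Hochberg adjusted p under 0.05 over 25821 genes). Of all genes tested, 41.9%, 51.5% and 62.4% were called in these comparisons, so the counts of members stand against a high background. The 3 comparisons share the day 0 libraries.

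**Figure D1:**
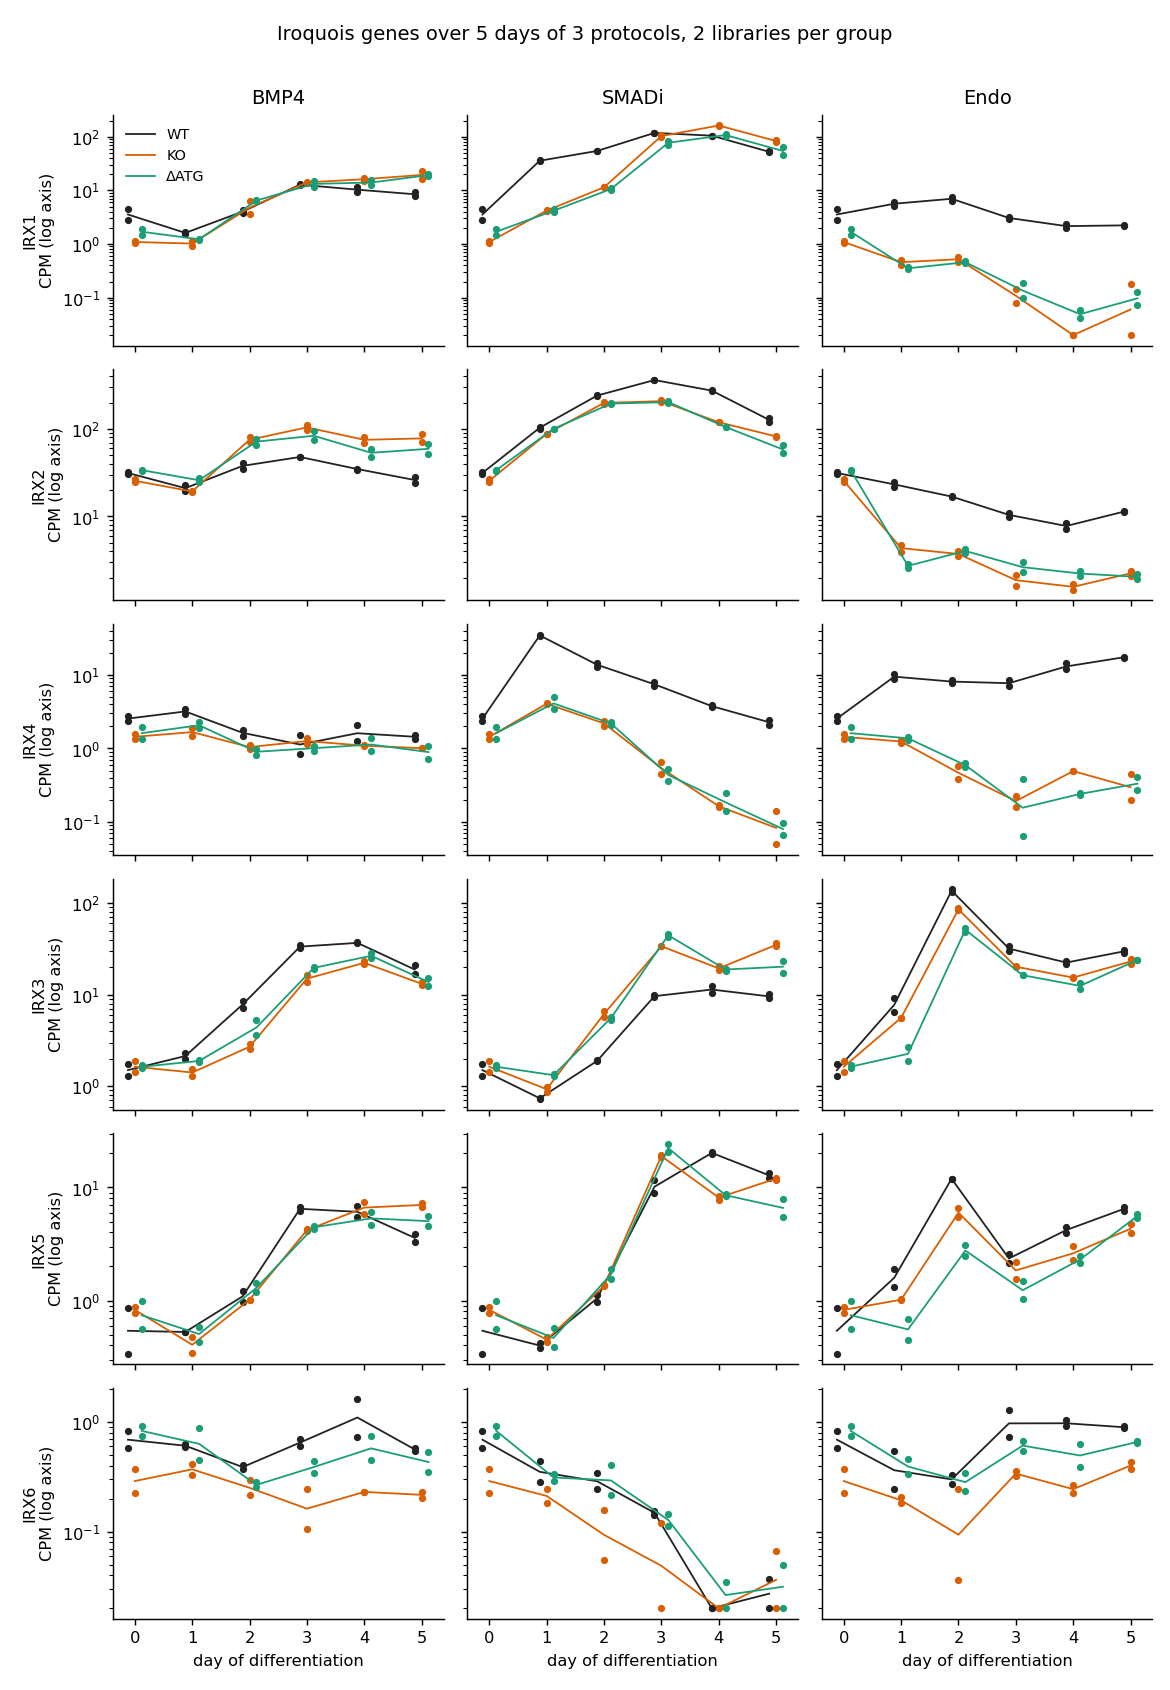
CPM of each Iroquois gene (rows, log axis) against day for the 3 protocols (columns). Points are single libraries, lines join geometric means of the 2 libraries, and values under 0.02 CPM are drawn at 0.02. In Endo, IRX1, IRX2 and IRX4 of both edited lines lie below WT on each of days 1 to 5.

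In SMADi, the neural protocol, IRX4 peaked on day 1 in WT cells. It went from 2.34 and 2.77 CPM at day 0 to 35.3 and 33.6 at day 1. It then stood at 14.6 and 12.9 on day 2, 7.02 and 7.89 on day 3, 3.63 and 3.90 on day 4 and 2.10 and 2.46 on day 5. The day 1 value was the highest (log2 fold change over day 0 of 3.75 ± 0.29, SE, adjusted p = 8.4e-16, where 43.5% of all genes were called), and on day 5 the difference from day 0 was -0.16 ± 0.28 (adjusted p = 0.66).

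IRX1 and IRX2 also rose on day 1 of SMADi (3.29 ± 0.19, adjusted p = 1.2e-20, and 1.72 ± 0.12, adjusted p = 4e-17) and peaked later. IRX1 stood at 37.0 and 34.6 CPM on day 1, at 54.1 and 54.9 on day 2, at 119 and 118 on day 3 and at 51.8 and 53.2 on day 5. IRX2 was at 106 and 101 on day 1, at 364 and 362 on day 3 and at 135 and 119.9 on day 5. Both genes were highest on day 3, with log2 fold changes over day 0 of 5.01 ± 0.20 for IRX1 (adjusted p = 4.5e-28) and 3.53 ± 0.13 for IRX2 (adjusted p = 1.4e-29), where 38.1% of all genes were called.

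The chromosome 16 genes came later in SMADi. IRX3 was lower on day 1, at 0.726 and 0.753 CPM (-1.04 ± 0.21, adjusted p = 3.9e-05), and stood at 9.47 and 9.82 on day 3 and 9.12 and 10.1 on day 5. IRX5 stood at 0.423 and 0.377 on day 1 and reached 19.8 and 20.6 on day 4 (5.08 ± 0.26 over day 0, adjusted p = 2.1e-23, where 44.3% of all genes were called). IRX6 went the other way: it had no count in either WT library on day 4, against 81 counts at day 0. With a floor of 3 counts per library, IRX6 was at least 11.9-fold lower on day 4 than at day 0.

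In Endo, IRX3 led the family in WT cells from day 2 on. On day 1 IRX2 was the highest member, at 6.89 CPM per kb beside 2.70 for IRX3. IRX3 stood at 9.16 and 6.55 CPM on day 1 and at 28.8 and 30.7 on day 5. On day 2 it stood at 132 and 142, the highest IRX3 values of all 120 libraries. IRX5 also peaked on day 2, at 11.99 and 11.9 CPM, and was at 6.25 and 6.67 on day 5. The day 2 changes over day 0 were 6.49 ± 0.18 for IRX3 (adjusted p = 4.5e-36) and 4.32 ± 0.26 for IRX5 (adjusted p = 3.1e-21), where 54.6% of all genes were called.

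The chromosome 5 genes divided in WT Endo. IRX4 was at 10.3 and 8.67 CPM on day 1 and at 17.6 and 17.1 on day 5, a rise of 2.76 ± 0.28 over day 0 (adjusted p = 1e-12). IRX2 fell, to 11.5 and 11.2 CPM on day 5 (-1.47 ± 0.13, adjusted p = 2.8e-15). IRX1 was at 2.22 and 2.24 CPM on day 5 (-0.72 ± 0.20, adjusted p = 0.0019), a call that rests on library a of day 0: without it the change was -0.33 (adjusted p = 0.23). IRX6 differed from day 0 by 0.35 ± 0.48, which did not pass the test.

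BMP4 raised the chromosome 16 pair IRX3 and IRX5 in WT. IRX3 stood at 35.0 and 32.1 CPM on day 3 and at 16.7 and 21.3 on day 5, and IRX5 at 6.19 and 6.78 and at 3.28 and 3.91. The day 5 changes over day 0 were 3.64 ± 0.17 (adjusted p = 1.2e-25) and 2.58 ± 0.25 (adjusted p = 1.1e-12). IRX1 rose less, by 1.22 ± 0.18 (adjusted p = 1.9e-07), and IRX4 changed by -0.83 ± 0.28 (adjusted p = 0.015). The IRX4 call was lost without library b of day 0 (adjusted p = 0.11) or library a of day 5 (adjusted p = 0.1). IRX2 (-0.26) and IRX6 (-0.32) did not pass the test at day 5.

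Across the 16 WT groups, IRX1 and IRX2 had the same order at the top: day 3, then day 4 and day 2 of SMADi. For IRX3 the order was day 2 of Endo, then days 4 and 3 of BMP4, and for IRX5 it was days 4 and 5 of SMADi, then day 2 of Endo. IRX4 was highest on day 1 of SMADi, followed by day 5 of Endo. Along these orders, the libraries of a group overlapped those of the next group in 4 of 15 steps for IRX1, 3 for IRX2, 7 for IRX4, 4 for IRX3, 4 for IRX5 and 10 for IRX6.

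The balance of the clusters was expressed as the share of IRX3, IRX5 and IRX6 in the summed CPM per kilobase of all 6 genes. It was 7.18% ± 0.624 (SD, n = 2) in WT at day 0. In WT SMADi it was 0.800% on day 1 and 10.5% on day 5, and in WT BMP4 it was 47.9% ± 1.43 on day 4. In WT Endo it was 20.1% ± 2.31 on day 1, 81.5% ± 1.69 on day 2 and 54.3% ± 1.57 on day 5. Over the 3 lines, the share was above 50% in 13 of 15 Endo groups and in 0 of the 15 BMP4, 15 SMADi and 3 day 0 groups.

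**Figure D2:**
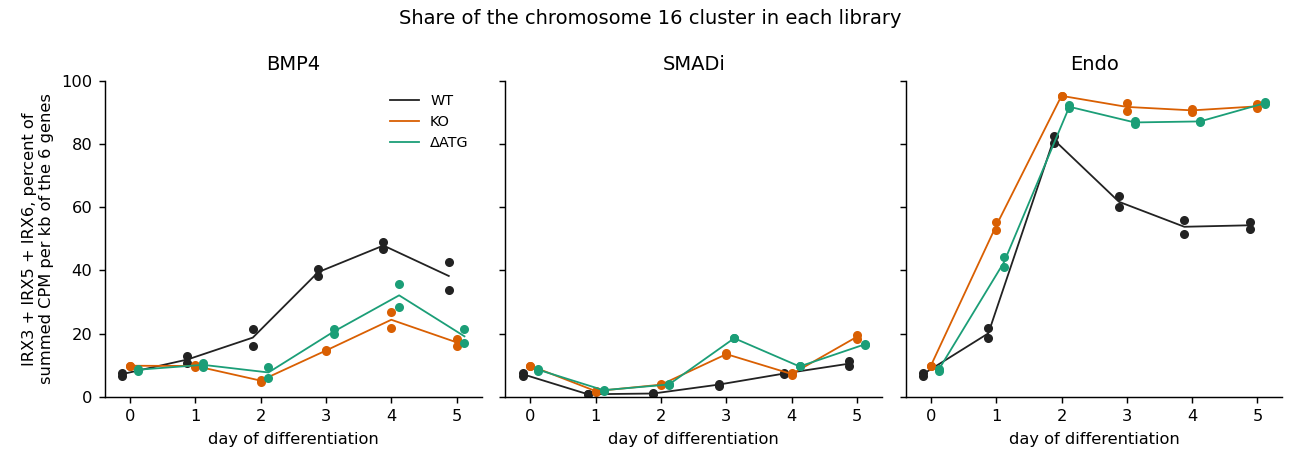
Share of IRX3, IRX5 and IRX6 in the summed CPM per kb of the 6 genes (percent), by day, for the 3 protocols. Points are libraries and lines join group means. On day 5 of Endo the edited lines stand at 92.0% (KO) and 93.0% (ΔATG), above the 54.3% of WT.

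At day 0 the edited lines differed from WT in IRX1. KO libraries stood at 1.16 and 1.03 CPM and ΔATG libraries at 1.94 and 1.48, all below the 4.50 and 2.81 of WT. The log2 fold changes were -1.74 ± 0.22 for KO (adjusted p = 2.2e-07) and -1.09 ± 0.21 for ΔATG (adjusted p = 0.00042). IRX1 was the only member called in either line, where 3.57% of all genes were called for KO and 3.91% for ΔATG. In a fit of only the groups compared neither call held (adjusted p = 0.62 and adjusted p = 0.85), and without library a of WT the ΔATG change was -0.71 (adjusted p = 0.32). With a replicate block for the library letter, 2 members were called in KO, IRX4 (-0.82, adjusted p = 0.048) beside IRX1. The comparisons of KO and of ΔATG share the WT libraries throughout.

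In Endo the chromosome 5 cluster was far lower in both edited lines. On average over days 1 to 5, 6 of 6 members were lower in KO and 5 in ΔATG, where genes called lower made up 8.27% and 17.1% of all genes tested. The median log2 fold change of the 3 chromosome 5 genes was -4.56 in KO and -4.43 in ΔATG, beside -0.65 and -1.07 for the 3 chromosome 16 genes and 0.00 and 0.02 over all genes. IRX1, IRX2 and IRX4 were called lower on 5 of 5 days in both lines. Of all genes, in either direction, 2.75%, 3.28%, 3.32%, 3.99% and 5.02% were called on days 1 to 5 in KO and 13.9%, 11.9%, 14.5%, 14.6% and 17.1% in ΔATG, and 15.5% and 34.7% over the course.

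IRX1, in WT at 6.12 and 5.21 CPM on day 1 of Endo, was at 0.411 and 0.511 in KO and at 0.336 and 0.370 in ΔATG. On day 2 WT stood at 7.64 and 6.38, KO at 0.581 and 0.468, and ΔATG at 0.483 and 0.434. By day 5 WT stood at 2.22 and 2.24, KO at 0.0204 and 0.177, and ΔATG at 0.128 and 0.0736. The libraries of the edited lines lay below those of WT on each of these days, and 1 KO library of day 4 had no IRX1 count. The mean log2 fold change over the 5 days was -4.81 ± 0.16 for KO (adjusted p = 2.1e-32) and -4.43 ± 0.14 for ΔATG (adjusted p = 1.6e-32).

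IRX4 stood at 10.3 and 8.67 CPM on day 1 of WT Endo, at 1.32 and 1.17 in KO and at 1.32 and 1.43 in ΔATG. On day 5, when WT was at 17.6 and 17.1, KO stood at 0.449 and 0.197 and ΔATG at 0.272 and 0.405. The gap was wider on day 5: log2 fold changes were -2.93 ± 0.29 on day 1 and -5.74 ± 0.35 on day 5 in KO, and -2.79 ± 0.29 and -5.68 ± 0.34 in ΔATG. A test of whether the difference depended on day gave adjusted p = 6.2e-05 for KO and adjusted p = 1.4e-07 for ΔATG, where 2.79% and 15.7% of all genes were called. Over the 5 days the mean change was -4.56 ± 0.15 in KO (adjusted p = 2.1e-32) and -4.64 ± 0.15 in ΔATG (adjusted p = 1.3e-32).

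IRX2 fell less, from a higher level. WT Endo libraries stood at 24.9 and 21.8 CPM on day 1, KO libraries at 3.97 and 4.75, and ΔATG libraries at 2.85 and 2.61. On day 5 WT stood at 11.5 and 11.2, KO at 2.08 and 2.41, and ΔATG at 1.92 and 2.17. The groups did not overlap on either day, and the mean log2 fold change was -2.34 ± 0.07 in KO (adjusted p = 1.8e-35) and -2.28 ± 0.06 in ΔATG (adjusted p = 4.2e-35). By p-value, IRX2, IRX1 and IRX4 ranked 8, 11 and 12 of 25821 genes in KO, and 7, 12 and 11 in ΔATG.

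The chromosome 16 genes changed less in Endo. On day 2, at the IRX3 peak of 132 and 142 CPM in WT, KO libraries stood at 83.8 and 87.5 and ΔATG libraries at 53.7 and 48.8. By day 5 the 3 lines were closer, at 28.8 and 30.7 in WT, 24.4 and 21.7 in KO, and 23.6 and 24.2 in ΔATG. Over the 5 days IRX3 changed by -0.55 ± 0.06 in KO (adjusted p = 8.1e-10) and by -1.07 ± 0.06 in ΔATG (adjusted p = 2.9e-20). IRX5 changed by -0.65 ± 0.10 (adjusted p = 1.9e-06) and -1.12 ± 0.10 (adjusted p = 4.3e-13). IRX6 was lower in KO (-1.36 ± 0.24, adjusted p = 1.3e-05) and did not pass the test in ΔATG (-0.43 ± 0.22, adjusted p = 0.14). The chromosome 16 share on day 5 was 92.0% ± 0.933 (SD, n = 2) in KO and 93.0% ± 0.400 in ΔATG.

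Marker sums in Endo were nearer to WT in KO than in ΔATG. On day 5 the 5 endoderm markers summed to 13754 to 13810 CPM in KO, 8853 to 9640 in ΔATG and 13932 to 14348 in WT, with 0, 0 and 0 of them at 0. The 6 neuroectoderm markers summed to 228 to 243, 189.9 to 193 and 252 to 255, with 2, 1 and 2 at 0. The part of these differences in the Iroquois values was not tested. LNCPRESS1 itself was low in Endo. On day 1 it stood at 1.65 and 1.05 CPM in WT, at 1.64 and 1.88 in KO and at 1.84 and 1.62 in ΔATG. On day 2 it stood at 0.209 and 0.376 CPM in WT, at 0.309 and 0.312 in KO and at 0.430 and 0.289 in ΔATG. Its part in the Iroquois values was not tested.

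In SMADi, IRX4 was lower in the edited lines on all 5 days. On day 1, when WT stood at 35.3 and 33.6 CPM, KO stood at 4.10 and 4.00 and ΔATG at 3.40 and 4.94. On day 3 the values were 7.02 and 7.89 in WT, 0.659 and 0.442 in KO, and 0.525 and 0.363 in ΔATG. On day 5 they were 2.10 and 2.46, 0.140 and 0.0496, and 0.0978 and 0.0659. No library of an edited line overlapped WT on these days. Over days 1 to 5 the change was -3.71 ± 0.15 in KO (adjusted p = 3.9e-29) and -3.77 ± 0.15 in ΔATG (adjusted p = 4.3e-29). In KO 1 member was called higher and 3 were called lower, and in ΔATG 1 and 3, where 46.5% and 45.7% of all genes were called. On single days from 1 to 5, 8.13%, 13.1%, 29.6%, 35% and 33.9% of all genes were called in KO and 9.85%, 15.3%, 27.4%, 33.5% and 31.1% in ΔATG.

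IRX1 was far lower on day 1 of SMADi, and this difference was gone by day 4. On day 1 KO libraries stood at 4.14 and 4.27 CPM and ΔATG libraries at 4.46 and 3.92, against 37.0 and 34.6 in WT. On day 3 KO was at 107 and 99.9 and ΔATG at 71.2 and 84.1, against 119 and 118. On day 4 KO stood at 161 and 164, above the 104 and 106 of WT, and ΔATG at 112 and 104. The difference in KO changed sign, from -3.09 ± 0.19 on day 1 (adjusted p = 2.1e-19) to 0.63 ± 0.16 on day 4 (adjusted p = 0.0017), and a test of dependence on day gave adjusted p = 8.7e-22, where 32.1% of all genes were called. In ΔATG the change was -3.09 ± 0.19 on day 1 (adjusted p = 1.7e-19), -0.61 ± 0.16 on day 3 (adjusted p = 0.0033) and 0.04 on day 4 (adjusted p = 0.92). The day 3 call in ΔATG was lost without its library a (highest adjusted p 0.078).

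IRX2 differed late in SMADi. On day 1 its libraries stood at 106 and 101 CPM in WT, 87.7 and 88.3 in KO, and 101 and 100.5 in ΔATG. On day 4 they stood at 273 and 277, 120.0 and 119, and 105 and 105. The lines were thus close on day 1 and apart on day 4, where the difference was -1.20 ± 0.12 in KO (adjusted p = 2e-12) and -1.38 ± 0.12 in ΔATG (adjusted p = 2.3e-14).

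IRX3 was higher in the edited lines in SMADi. On day 3 WT libraries stood at 9.47 and 9.82 CPM, KO at 33.8 and 33.9, and ΔATG at 43.0 and 46.3. On day 5 the values were 9.12 and 10.1, 36.4 and 33.8, and 17.4 and 23.6. Both edited lines lay above WT on all 5 days. IRX3 was called higher on 4 days in KO and on 5 in ΔATG, against the single-day shares given above. The mean change was 1.30 ± 0.07 in KO (adjusted p = 4.6e-22) and 1.28 ± 0.07 in ΔATG (adjusted p = 3.2e-22). IRX5 averaged 0.00 and -0.02 over the 5 days and passed the test in neither line, while single days differed in both directions. On day 3 it was higher, by 0.89 ± 0.21 in KO (adjusted p = 0.00075) and 1.13 ± 0.21 in ΔATG (adjusted p = 2.9e-05). On day 4 it was lower, by -1.31 ± 0.21 (adjusted p = 1.2e-06) and -1.24 ± 0.21 (adjusted p = 3.6e-06). IRX6 had 0 to 4 counts per SMADi library on days 4 and 5, and its mean change over the course passed the test in neither line. WT day 4 had no IRX6 count, so this fitted mean is no bound, and without library b of WT day 5 it moved in ΔATG from 0.78 to 1.42 (adjusted p = 0.045).

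Marker sums moved in the same libraries. On day 5 of SMADi the 6 neuroectoderm markers summed to 781 to 787 CPM in WT, 2074 to 2081 in KO and 2012 to 2263 in ΔATG. On day 1 the sums were 491 to 496, 537 to 551 and 531 to 537. The 7 pluripotency markers summed to 4556 to 4571 on day 5 in WT, 3342 to 3402 in KO and 3546 to 3632 in ΔATG. Their part in the Iroquois values was not tested.

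In BMP4 IRX2 was higher and IRX3 lower in both edited lines. Over days 1 to 5, 5 members were called in KO and 4 in ΔATG, where 27.6% and 15.7% of all genes were called. IRX2 stood at 28.4 and 23.99 CPM on day 5 in WT, at 86.9 and 70.2 in KO, and at 52.4 and 67.3 in ΔATG. IRX1 was at 9.23 and 7.78 on that day in WT, at 22.9 and 16.5 in KO, and at 18.2 and 20.4 in ΔATG. Every library of the edited lines stood above both WT libraries of that day. For IRX1 this was not so on day 1, when WT stood at 1.55 and 1.67, KO at 0.913 and 1.14, and ΔATG at 1.21 and 1.24. IRX2 on day 1 had a mean of 5.71 CPM per kb in KO and 7.68 in ΔATG, beside 6.24 in WT, so KO was not above WT. IRX1 was called higher on 2 of 5 days in KO and on 2 in ΔATG. The share of all genes called on single days of BMP4 is not given here. A test of whether the IRX1 difference depended on day gave adjusted p = 7.3e-05 in KO and adjusted p = 0.0021 in ΔATG. For IRX2 it gave adjusted p = 2.2e-09 and adjusted p = 0.0095. That test called 8.42% and 1.63% of all genes. On average over days 1 to 5 IRX2 was higher by 0.94 ± 0.05 in KO (adjusted p = 7.1e-21) and 0.77 ± 0.05 in ΔATG (adjusted p = 5.6e-17), and IRX1 by 0.32 ± 0.09 (adjusted p = 0.0026) and 0.39 ± 0.09 (adjusted p = 0.00045).

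IRX3 was lower in BMP4. On day 3 WT libraries stood at 35.0 and 32.1 CPM, KO at 16.3 and 13.7, and ΔATG at 20.1 and 19.2. The mean change over the 5 days was -0.91 ± 0.07 in KO (adjusted p = 2.1e-16) and -0.54 ± 0.07 in ΔATG (adjusted p = 8e-09). IRX4, at 0.730 to 3.43 CPM in the BMP4 libraries, changed by -0.52 ± 0.13 in KO (adjusted p = 0.0015) and -0.57 ± 0.13 in ΔATG (adjusted p = 0.00091). IRX6 was lower in KO (-1.38 ± 0.23, adjusted p = 3.7e-06), and IRX5 was called in neither line on average over days 1 to 5. In KO the IRX5 mean was 1.47 CPM per kb on day 3, beside 2.28 in WT. On day 5 it was 2.47, beside 1.26. A test of whether the IRX5 difference depended on day gave adjusted p = 0.0024 in KO and adjusted p = 0.3 in ΔATG. It called 8.42% and 1.63% of all genes. On day 5 the 6 mesoderm markers summed to 328 to 363 CPM in WT, 88.8 to 126 in KO and 183 to 229 in ΔATG, and the part of this in the Iroquois values was not tested.

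**Figure D3:**
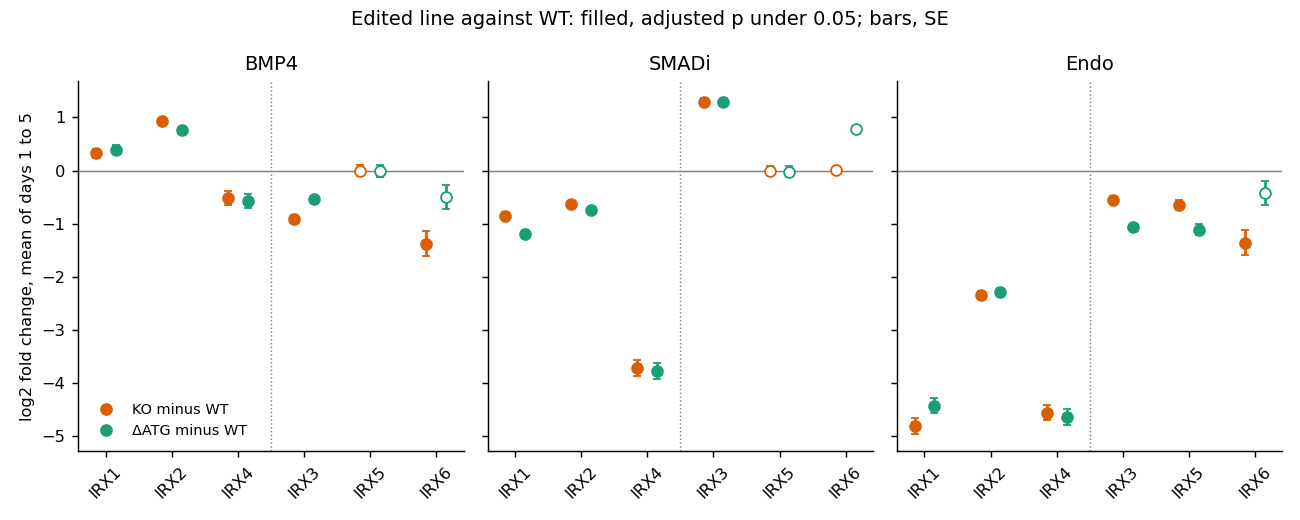
Mean log2 fold change over days 1 to 5 of KO and ΔATG against WT for each gene in the 3 protocols. Filled points have an adjusted p under 0.05, and bars are SE (none drawn for IRX6 in SMADi). IRX1 and IRX4 in Endo and IRX4 in SMADi lie lowest, and IRX3 lies above 0 in SMADi and below 0 in BMP4 and Endo.

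Differences between protocols were tested as interaction contrasts. For KO, the IRX1 effect in BMP4 exceeded that in Endo by 5.14 ± 0.19 (adjusted p = 4.5e-29) and the IRX2 effect by 3.28 ± 0.08 (adjusted p = 3.3e-36). By p-value IRX2 and IRX1 ranked 1 and 2 of 25821 genes in this contrast, where 21% of all genes were called. The KO effect on IRX3 in BMP4 minus that in SMADi was -2.20 ± 0.10 (adjusted p = 5.3e-26), where 42.6% of all genes were called. SMADi minus Endo was 3.96 ± 0.19 for IRX1 in KO (adjusted p = 7e-25) and 3.24 ± 0.17 in ΔATG (adjusted p = 9.8e-23), where 31.7% and 39.1% of all genes were called. Of 36 such contrasts over the 6 members, 31 passed the test, 3 of them IRX6 contrasts that include SMADi and so the WT group with no IRX6 count.

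In the chromosome 5 genes, KO and ΔATG were close to each other in Endo beside their distance from WT. ΔATG minus KO was 0.38 for IRX1 (adjusted p = 0.48), 0.06 for IRX2 (adjusted p = 0.67) and -0.08 for IRX4 (adjusted p = 0.85), none of which passed the test. IRX3 was lower in ΔATG than in KO (-0.52 ± 0.06, adjusted p = 8.7e-09), as was IRX5 (-0.47 ± 0.11, adjusted p = 0.0007), and IRX6 was higher (0.93 ± 0.24, adjusted p = 0.0027). These were the 3 members called, where 18.9% of all genes were called. In SMADi IRX1 was the member called (-0.34 ± 0.08, adjusted p = 0.0057, where 1.26% of all genes were called). In BMP4, where 12.5% of all genes were called, IRX3 (0.37 ± 0.07, adjusted p = 8.3e-05) and IRX6 (0.88 ± 0.24, adjusted p = 0.0077) were higher in ΔATG. IRX2 there was lower (-0.17 ± 0.05, adjusted p = 0.029), a call kept by 11 of 20 fits that each left out 1 library.

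Neighbouring genes were taken from the cluster spans and 250 kb beyond them, which left 11 tested neighbours on chromosome 5 and 7 on chromosome 16. They were placed by GENCODE 29, which held 58279 of the 62703 genes of the table, so neighbours missing from it were not counted. C5orf38, a gene that starts beside IRX2 on the opposite strand (chr5:2752131-2755397, plus strand), moved with IRX2. On day 5 of Endo it stood at 1.64 to 2.03 CPM in WT, 0.245 to 0.375 in KO and 0.288 to 0.534 in ΔATG. Its change over days 1 to 5 of Endo was -2.12 ± 0.13 in KO (adjusted p = 2.4e-19) and -2.16 ± 0.13 in ΔATG (adjusted p = 3.7e-20), beside -2.34 and -2.28 for IRX2. In BMP4 it was higher, by 0.91 ± 0.10 (adjusted p = 2.8e-11) and 0.66 ± 0.10 (adjusted p = 4.2e-07), beside 0.94 and 0.77 for IRX2.

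RefSeq gives C5orf38 as an older name of IRX2-DT, the divergent transcript of IRX2. The IRX2 promoter is shown because the RefSeq windows of IRX2 and of IRX2-DT have 285 of 300 bases in common. It is chr5:2751628-2751927 on the minus strand of GRCh38.p14, from 250 bases before to 50 after the IRX2 start, with the 34 CpG dinucleotides in capitals. The C5orf38 start in GENCODE 29, given above, lies outside this window.
IRX2 promoter: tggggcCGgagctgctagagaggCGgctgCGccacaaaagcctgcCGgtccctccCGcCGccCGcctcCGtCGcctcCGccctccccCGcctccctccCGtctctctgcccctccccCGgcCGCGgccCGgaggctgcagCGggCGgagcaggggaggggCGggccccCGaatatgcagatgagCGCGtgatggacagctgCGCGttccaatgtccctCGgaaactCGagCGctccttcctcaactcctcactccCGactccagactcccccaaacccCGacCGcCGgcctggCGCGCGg
The GC box letters GGGCGG, searched on both strands, occur in this window and in 44.9% of the 34941 RefSeq promoter windows of this length. The letters TATAAA do not occur in it and occur in 11.6% of all windows.

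IRX4-AS1, an antisense gene inside the IRX4 locus (chr5:1883966-1884649, plus strand), was also lower in the edited lines. It changed by -4.92 ± 0.59 in KO (adjusted p = 4.1e-08) and -5.84 ± 0.65 in ΔATG (adjusted p = 2e-09) over days 1 to 5 of Endo. In SMADi it changed by -3.66 ± 0.64 (adjusted p = 7.7e-06) and -3.80 ± 0.66 (adjusted p = 6.9e-06). The library kit keeps strand, but whether counting used it is not given in the sources used here, and without it reads of IRX4 and IRX4-AS1 cannot be told apart. In Endo, 3 of the 11 neighbours on chromosome 5 were called lower in KO and 4 in ΔATG, and 0 and 0 of the 7 on chromosome 16, where 8.27% and 17.1% of all genes were called lower. Called higher were 1 and 1 on chromosome 5 and 1 and 1 on chromosome 16, where 7.25% and 17.6% of all genes were called higher. NDUFS6, a mitochondrial complex I gene beside IRX4, stood at a log2 difference of -0.17 in KO (adjusted p = 0.0057) and -0.25 in ΔATG (adjusted p = 1.5e-05). FTO, whose introns are known to hold enhancers of IRX3, changed by 0.03 (adjusted p = 0.92) and -0.17 (adjusted p = 0.06).

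Over the 48 group means of the differentiation arm, the likeness of the members was described by Pearson's r of log2 CPM. These points share lines, days and protocols and are not independent. Over all groups r was 0.91 for IRX1 and IRX2 and 0.83 for IRX3 and IRX5, both pairs within a cluster. Within BMP4, SMADi and Endo (15 groups each), r was 0.75, 0.25 and 0.97 for IRX1 and IRX2, and 0.95, 0.92 and 0.86 for IRX3 and IRX5, so that IRX3 and IRX5 were alike in each protocol and IRX1 and IRX2 were not in SMADi. IRX4 had r = 0.16 with IRX1 and 0.25 with IRX2 over all groups, which joins opposite signs: with IRX1 it was -0.75 in BMP4, -0.38 in SMADi and 0.90 in Endo, and with IRX2 -0.80, 0.43 and 0.90. IRX6 had r = -0.46 with IRX5, and -0.04, -0.77 and 0.06 within the protocols. Across clusters r over all groups was 0.07 for IRX1 and IRX3, 0.22 for IRX2 and IRX5, and 0.35 for IRX4 and IRX6, and was highest for IRX1 and IRX5 (0.46). Within BMP4, SMADi and Endo it was 0.87, 0.70 and 0.27 for IRX1 and IRX3, and 0.96, 0.80 and 0.27 for IRX1 and IRX5. These 2 pairs were thus alike across clusters in BMP4 and SMADi.

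Among 13795 other genes that passed a cut on mean level (log2 CPM of 1), compared over the same groups, C5orf38 was the most like IRX2 (r = 0.98), followed by ENSG00000289075 (0.96) and HES3 (0.94). MN1 was the most like IRX1 (0.96), then C5orf38 (0.93) and EPOP (0.91). For IRX3 the nearest were KDM6B (0.88), ZBTB22 (0.87) and PPP1R9B (0.87), and for IRX5 they were ZNF433 (0.88), ZNF77 (0.87) and EVL (0.85). IRX4 had lower values, with ZNF578 (0.77), CBR1 (0.76) and HES6 (0.74). Its antisense neighbour IRX4-AS1, below that cut, had r = 0.85. IRX6 was nearest to MPP1 (0.84), CIB1 (0.84) and RAB20 (0.84).

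**Figure D4:**
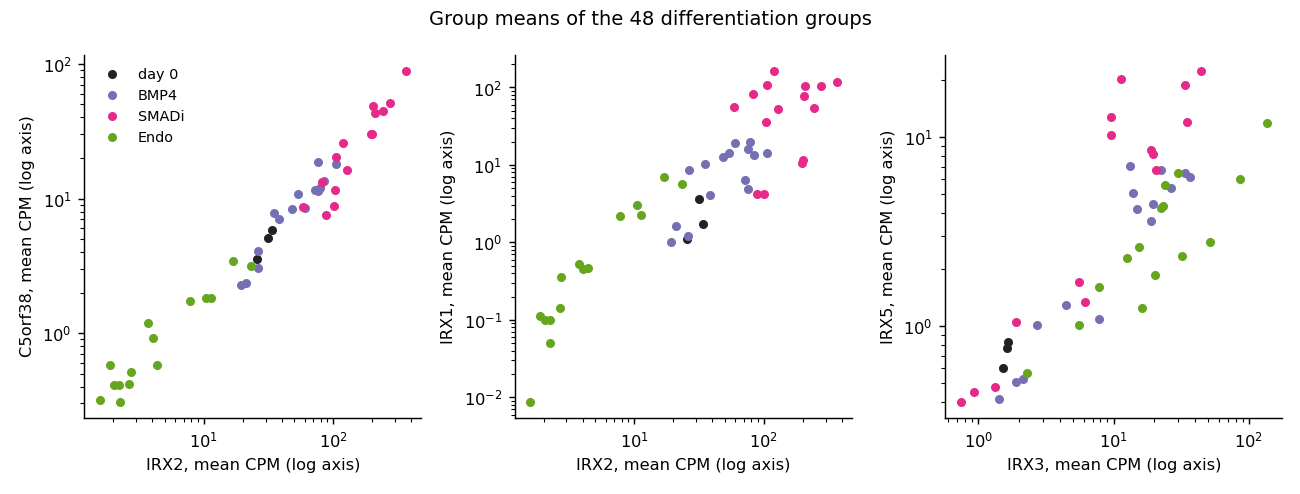
Mean CPM (log axes) of the 48 differentiation groups for IRX2 and C5orf38, IRX2 and IRX1, and IRX3 and IRX5, with points coloured by protocol. C5orf38 and IRX2 lie close to a line (r = 0.98), and IRX3 and IRX5 scatter more (r = 0.83).

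Other genes of the same class and of the regions that Iroquois genes are known for were set beside the family. Of 12 TALE genes outside the family, among them the homeodomain cofactors MEIS and PBX, 1 was higher and 3 were lower in KO over days 1 to 5 of Endo, with a median log2 fold change of -0.02. Of 15 forebrain genes, 3 were higher and 2 lower (median -0.12), and of 20 midbrain, hindbrain and spinal cord genes, 0 and 5 (median -0.98). Of 13 genes of signalling pathways, 0 were higher and 4 lower (median -0.19), and of 8 heart genes, 0 and 3 (median -0.26). The medians in ΔATG were -0.17, -0.28, -1.19, -0.09 and -1.003 in the same order. The median over all genes was 0.00 in KO, and 7.25% of all genes were called higher and 8.27% lower. The highest and lowest called genes in KO were TGIF1 (0.14 (adjusted p = 0.015)) and MEIS1 (-0.77 (adjusted p = 0.0041)) of the TALE genes, and RAX (0.90 (adjusted p = 0.01)) and SIX3 (-1.90 (adjusted p = 7.6e-22)) of the forebrain genes.

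In SMADi, 5 of the 12 TALE genes were higher and 4 lower in KO, and 5 and 3 in ΔATG. Of all genes, 21.2% were called higher and 25.4% lower in KO, and 20.9% and 24.8% in ΔATG, against which the counts of each list stand. MEIS1 changed by 1.82 (adjusted p = 2.3e-07) in KO and by 1.43 (adjusted p = 4.3e-05) in ΔATG, the highest called gene of the list, and PKNOX1 by -0.34 (adjusted p = 0.00025) and -0.27 (adjusted p = 0.0028), the lowest. Of the forebrain genes 5 were higher and 5 lower in KO, and 6 and 5 in ΔATG. SIX3, a forebrain factor known to oppose IRX3, changed by -4.05 (adjusted p = 2.7e-37) and -3.63 (adjusted p = 2.9e-35), while IRX3 changed by 1.30 and 1.28. In Endo both genes were lower, SIX3 by -1.90 and -1.81 and IRX3 by -0.55 and -1.07. SIX3 was already lower at day 0, by -3.88 (adjusted p = 0.00026) in KO and -5.39 (adjusted p = 1.4e-05) in ΔATG. IRX3 was called in neither line at day 0. Whether SIX3 and IRX3 were linked was not tested. The highest called forebrain genes above that cut were EMX2 in KO (2.66 (adjusted p = 0.022)) and OTX1 in ΔATG (2.31 (adjusted p = 3.5e-30)). On day 5 EMX2 stood at 4.36 to 6.58 CPM in WT, 67.9 to 70.5 in KO and 61.4 to 63.2 in ΔATG, and OTX1 at 24.9 to 29.4, 207 to 219 and 163 to 203. Of the midbrain, hindbrain and spinal cord genes, 3 were higher and 8 lower in KO, and 3 and 8 in ΔATG. GBX2, a gene of the midbrain and hindbrain border, changed by -3.56 (adjusted p = 1.5e-24) and -3.36 (adjusted p = 1.2e-23), the lowest called gene of the list. The highest were WNT1, a signal of that border, in KO (5.16 (adjusted p = 2.3e-06)) and PAX3, a dorsal neural factor, in ΔATG (2.66 (adjusted p = 0.0059)). On day 5 WNT1 stood at 0.0392 to 0.148 CPM in WT, 37.7 to 39.3 in KO and 14.4 to 19.1 in ΔATG, and PAX3 at 2.53 to 4.60, 43.8 to 46.3 and 19.3 to 26.3. Both had libraries with no count early in SMADi, so their fitted means over 5 days are no bounds.

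In BMP4 the midbrain, hindbrain and spinal cord genes counted 1 higher and 11 lower of 20 in KO, and 1 and 5 in ΔATG, where 12.5% and 15.1% of all genes were called higher and lower in KO, and 7.63% and 8.12% in ΔATG. Of the 8 heart genes, 7 were lower in KO and 4 in ΔATG, with medians of -1.48 and -0.54. IRX4, the Iroquois gene of the ventricles, changed by -0.52 and -0.57 in the same comparisons.

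In the overexpression arm the LNCPRESS1 level went against some labels, so groups are named as the libraries labelled so. Early libraries labelled lncPRESS1 stood at 32.3 and 53.8 CPM of LNCPRESS1, beside 28.97 and 30.2 for vector and 185 and 133 for lncSIRP. At the middle stage they stood at 55.1 and 58.6, beside 47.8 and 36.3 for vector and 13.7 and 13.3 for lncSIRP. Late libraries labelled lncPRESS1 stood at 153 and 151, beside 32.9 and 32.6 for vector and 34.9 and 35.9 for lncSIRP. The libraries labelled lncPRESS1DATG were above vector at each stage, at 144 and 156, 87.8 and 133, and 154 and 156.

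IRX4 in vector stood at 24.5 and 22.2 CPM early, 21.8 and 23.1 at the middle stage and 25.3 and 27.1 late. IRX1 stood at 21.2 and 20.5, 17.3 and 21.6, and 21.7 and 24.4. The edgeR quasi-likelihood test called 0 members between late and early vector libraries (0 at an unadjusted p under 0.05 and 0 with DESeq2), where 0.124% of all genes were called.

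In the libraries labelled lncPRESS1DATG, IRX4 was lower at every stage. They stood at 13.1 and 9.97 CPM early, at 10.5 and 10.7 at the middle stage and at 9.48 and 9.66 late, below the vector libraries of the same stage. The changes were -1.02 ± 0.13 (adjusted p = 4.8e-05), -1.08 ± 0.13 (adjusted p = 4.2e-05) and -1.45 ± 0.13 (adjusted p = 8.7e-07). Of all genes, 23%, 5.43% and 19.8% were called at the early, middle and late stages. On average over the 3 stages IRX4 changed by -1.18 ± 0.07 (adjusted p = 3.3e-09), IRX2 by -0.55 ± 0.09 (adjusted p = 0.00026) and IRX1 by -0.38 ± 0.10 (adjusted p = 0.0089). IRX3 was higher by 0.85 ± 0.25 (adjusted p = 0.019), a call lost without library a of late vector (adjusted p = 0.064) or library b of middle vector (adjusted p = 0.067). These were the 4 members called on average over the stages, where 24.2% of all genes were called. By single stage, IRX1 was called at the middle stage only, and IRX2 at the middle and late stages.

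At the middle stage, the libraries labelled lncSIRP and lncPRESS1 departed from vector in all 6 members, where 59.3% and 57.4% of all genes were called. IRX3 stood at 4.45 and 5.33 CPM in those labelled lncSIRP and at 5.66 and 5.62 in those labelled lncPRESS1, against 0.531 and 0.252 in vector. IRX4 stood at 8.93 and 8.01, 9.85 and 11.1, and 21.8 and 23.1. IRX1 stood at 6.35 and 6.52, 6.84 and 8.34, and 17.3 and 21.6. IRX3 and IRX5 were thus higher, and the chromosome 5 genes and IRX6 were lower. IRX3 changed by 3.65 ± 0.44 (adjusted p = 1.2e-06) and 3.85 ± 0.44 (adjusted p = 7e-07), and IRX5 by 2.68 ± 0.57 (adjusted p = 0.0006) and 2.28 ± 0.57 (adjusted p = 0.0024). IRX4 changed by -1.40 ± 0.13 (adjusted p = 5e-08) and -1.10 ± 0.13 (adjusted p = 1.1e-06), and IRX6 by -2.49 ± 0.87 (adjusted p = 0.02) and -2.07 ± 0.84 (adjusted p = 0.044). The IRX6 call was kept by 2 of 4 fits without 1 library for lncSIRP and by 1 of 4 for lncPRESS1 (highest adjusted p 0.14 and highest adjusted p 0.24). It was lost for both without library a of vector, for lncSIRP also without its library b, and for lncPRESS1 without either of its own libraries.

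Marker sums differed widely in these middle libraries. The 7 pluripotency markers summed to 2105 to 2110 CPM in those labelled lncSIRP, 2058 to 2065 in those labelled lncPRESS1 and 6186 to 6442 in vector. The 6 mesoderm markers summed to 419.6 to 432, 562 to 578 and 28.1 to 33.6, and the 6 neuroectoderm markers to 853 to 882, 668 to 682 and 303 to 338. Their part in the Iroquois values was not tested. The chromosome 16 share was 10.9% ± 2.30 (SD, n = 2) and 11.3% ± 1.29, beside 0.781% ± 0.291 in vector.

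Fewer members were called in the early and late libraries with these labels. In the early libraries labelled lncPRESS1, the edgeR quasi-likelihood test called 0 members (0 at an unadjusted p under 0.05), where 0.275% of all genes were called. In the early libraries labelled lncSIRP, IRX2 was the member called (0.67 ± 0.16, adjusted p = 0.018, where 8.79% of all genes were called), and 0 of 4 fits without 1 library kept the call (highest adjusted p 0.13). Late libraries labelled lncPRESS1 were higher in IRX1 (0.73 ± 0.17, adjusted p = 0.0072), IRX2 (0.57 ± 0.16, adjusted p = 0.019) and IRX4 (0.48 ± 0.13, adjusted p = 0.013), where 21.3% of all genes were called. These late calls depended on single libraries: of 4 fits that each left out 1 library, 2 of 4, 1 of 4 and 2 of 4 kept them for IRX1, IRX2 and IRX4, and all 3 were lost without library a of late vector or library b of late lncPRESS1 (highest adjusted p 0.15, highest adjusted p 0.19 and highest adjusted p 0.13). In the late libraries labelled lncSIRP, IRX2 (0.47 ± 0.16, adjusted p = 0.047) and IRX4 (0.47 ± 0.13, adjusted p = 0.015) were called higher, where 20.5% of all genes were called. The calls were kept by 0 of 4 and 2 of 4 fits that each left out 1 library, IRX4 being lost without library a of vector or library b of lncSIRP. The difference between the middle and late libraries of this label was not tested. Averages over the 3 stages mix these directions, with 3 members called for lncPRESS1 (45.8% of all genes) and 4 for lncSIRP (49.9%).

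**Figure D5:**
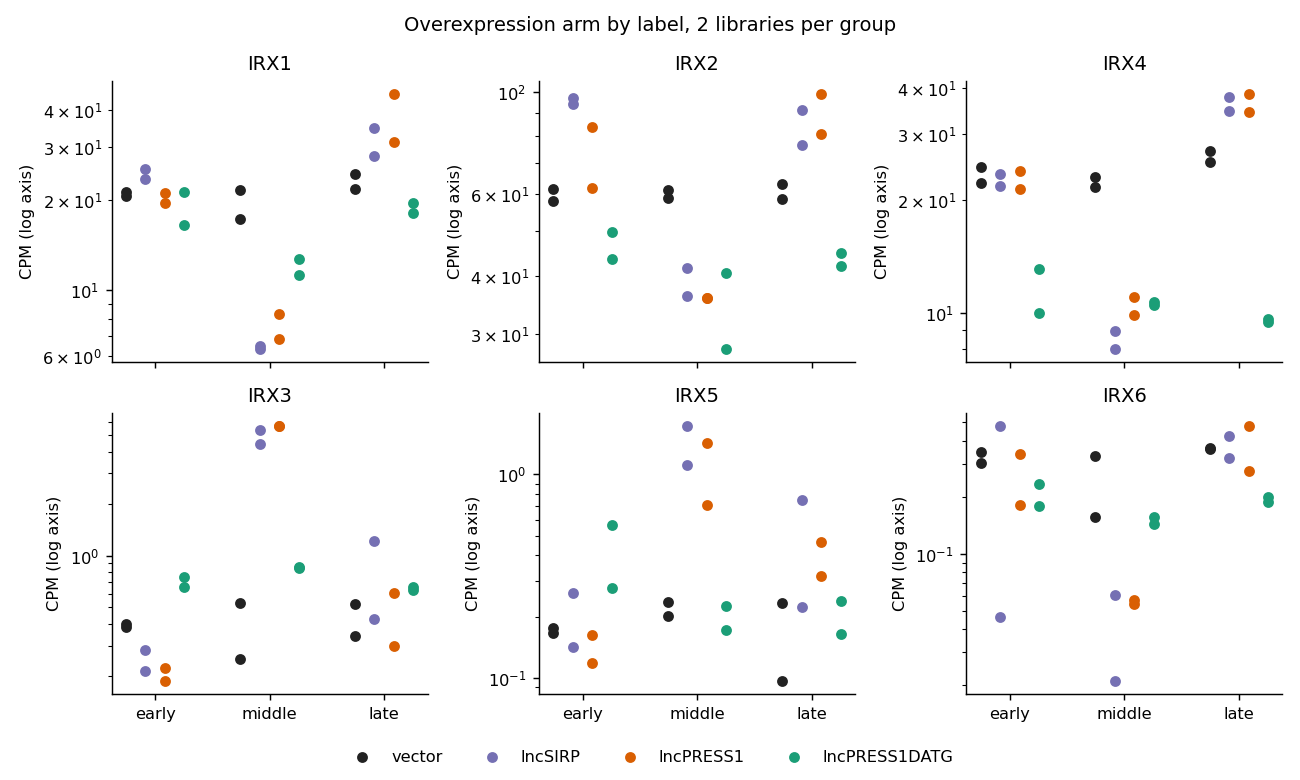
CPM (log axis) of each Iroquois gene in the overexpression arm at the early, middle and late stages, with points for single libraries coloured by label. At the middle stage the libraries labelled lncSIRP and lncPRESS1 lie above vector for IRX3 and IRX5, and below it for the other 4 genes.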

How the data were processed

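The authors deposited 1 table of estimated counts per gene for all 120 libraries, and 43.9% of its values are not whole. The build GRCh38 is named in the submitters' processing notes. Which aligner, quantifier and annotation made it, and whether strand was used, is not given in the sources used here. Libraries were grouped by their titles. Counts were rounded, scaled by TMM and fitted per arm with edgeR 4.0.16 (R 4.3.3) by the quasi-likelihood test over all groups of the arm, with 25821 and 23300 genes after the filter on low counts and 48 and 12 residual degrees of freedom. P-values were adjusted over all genes tested. The SE is the size of the log2 fold change divided by the square root of F. CPM used TMM-scaled library sizes, and CPM per kb the union exon length of GENCODE 29. A member is called where its adjusted p is under 0.05. Statements that libraries of groups do not overlap, or lie above or below others, describe those libraries only. How many of all genes separate so with 2 libraries per group was not counted.

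The members and gene lists were chosen with earlier results of these data known. All 6 members are reported, with neighbours within 250 kb and the 3 genes most alike to each member (mean log2 CPM of at least 1, prior count 2). Of 5 gene lists, the counts and some of the called extremes are given, the extremes with the same cut on mean log2 CPM. Alternatives were DESeq2 1.42.0, its size factors, no filter, only the groups compared, a replicate block, and leaving out each library. The procedure was tested on simulated data: for KO against WT in SMADi (23226 genes), 100% of genes changed by a log2 of 1 were recovered, and at day 0 (23191 genes) 82%. Changes were planted only in genes above a cut on counts, and all genes had the same spread. These rates therefore do not carry over to groups with few counts or to genes with a wider spread. At day 0, libraries of the same letter deviated together from their group means (correlation above 0.1 in 3 of 3 pairs), so the paired fit is given there. Homeobox sequences come from GENCODE 29 transcripts, in place of a planned protein comparison, and the promoter from RefSeq.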

Additional observations from a re-analysis of the deposited data

Results flagged for a closer look

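For 31 of 36 contrasts, a test of the difference itself found that the effect of an edited line on a member differed between protocols. Each value is the log2 effect over days 1 to 5 in the first protocol minus that in the second, by edgeR's quasi-likelihood test. The contrasts of 1 line share WT libraries. Those of IRX6 that include SMADi rest on WT groups with 0 counts on day 4 and 2 on day 5, so their size is a fitted value and no bound. Without library b of WT day 5, the SMADi effect of ΔATG on IRX6 moved from 0.78 to 1.42 (adjusted p = 0.045).

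For KO, BMP4 minus SMADi was 1.17 for IRX1 (adjusted p = 7e-13), 1.57 for IRX2 (adjusted p = 6.3e-25), 3.19 for IRX4 (adjusted p = 2.3e-20), -2.20 for IRX3 (adjusted p = 5.3e-26) and -1.40 for IRX6 (adjusted p = 0.047), where 42.6% of all genes were called. BMP4 minus Endo was 5.14 for IRX1 (adjusted p = 4.5e-29), 3.28 for IRX2 (adjusted p = 3.3e-36), 4.04 for IRX4 (adjusted p = 1.6e-23), -0.36 for IRX3 (adjusted p = 0.0028) and 0.64 for IRX5 (adjusted p = 0.00085), where 21% were called. SMADi minus Endo was 3.96 for IRX1 (adjusted p = 7e-25), 1.71 for IRX2 (adjusted p = 2e-24), 0.84 for IRX4 (adjusted p = 0.0015), 1.84 for IRX3 (adjusted p = 4.5e-23) and 0.65 for IRX5 (adjusted p = 0.00038), where 31.7% were called. All 3 chromosome 5 genes thus stood lowest in Endo beside their WT.

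For ΔATG, BMP4 minus SMADi was 1.58 for IRX1 (adjusted p = 1.4e-17), 1.51 for IRX2 (adjusted p = 4.7e-24), 3.20 for IRX4 (adjusted p = 5.7e-20), -1.82 for IRX3 (adjusted p = 1.3e-22) and -1.28 for IRX6 (adjusted p = 0.032), where 36.2% of all genes were called. BMP4 minus Endo was 4.82 for IRX1 (adjusted p = 1.6e-29), 3.05 for IRX2 (adjusted p = 8.6e-35), 4.07 for IRX4 (adjusted p = 1e-23), 0.53 for IRX3 (adjusted p = 1.1e-05) and 1.11 for IRX5 (adjusted p = 4.8e-08), where 23.7% were called. SMADi minus Endo was 3.24 for IRX1 (adjusted p = 9.8e-23), 1.54 for IRX2 (adjusted p = 1.1e-22), 0.87 for IRX4 (adjusted p = 0.0012), 2.35 for IRX3 (adjusted p = 7.3e-28), 1.10 for IRX5 (adjusted p = 1.6e-08) and 1.21 for IRX6 (adjusted p = 0.039), where 39.1% were called. The IRX3 contrast of BMP4 minus Endo had opposite signs in the edited lines, and that difference between lines was not tested.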

How the results depend on the processing

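No called value changed direction under any alternative. The count of members called at day 0 was among the less stable. For KO it was 1, and became 2 with DESeq2's Wald test and 0 in a fit of only the groups compared. With the replicate block it was 2 (IRX4, adjusted p = 0.048). It also moved when WT library b was left out. For ΔATG at day 0 it was 1, became 0 in a fit of only the groups compared, and ranged from 0 (without WT library a) to 2 (without WT library b). For ΔATG against KO in SMADi it was 1 and became 2 in a fit of only the groups compared. For lncPRESS1 against vector over 3 stages it was 3 and ranged from 1 to 4 when each library was left out, reaching 1 without library b of early lncPRESS1, library b of late vector or library a of middle lncPRESS1. Outside day 0 the letters were not taken to pair the libraries, since not every pair of deviations from group means correlated above 0.1: 11 of 15 did in BMP4 (r of 0.0421 to 0.229), 0 of 15 in SMADi and 0 of 15 in Endo. With the replicate block no other count of members moved by over 1.5 times, and 12 single values gained and 2 lost a call. Leaving out each library lost 112 calls and gained 17 among single values, and 2535 were the same. IRX6 is limited by depth, with few counts in SMADi.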
